A study of Homo sapiens with 4 samples.

Results

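The genes described here are the ligands and receptors of the tumour necrosis factor (TNF) superfamily, measured in PC3 cells after knockdown of ALKBH3. Members were chosen by symbol: genes whose symbol starts with TNFSF or TNFRSF and a number, and LTA, LTB, LTBR, FAS, FASLG, CD27, CD70, CD40, NGFR, EDAR and RELT. The spot files carry accessions and no gene symbols, so the symbols were taken from the RefSeq gene table of GRCh38.p14 through the accessions, which named 24910 of the 34127 probes that are not controls. The rule found 50 probes of 42 genes among the 19102 genes so named, of which 15 genes with 18 probes code for ligands and 27 genes with 32 probes for receptors. TNFRSF6B, a decoy receptor that fits the name pattern, had no probe named by this route and is not analysed here. TNF itself, CD40LG and EDA lie outside the rule and are given with the other genes of the pathway.

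TNF superfamily ligands are mostly trimeric proteins of the cell surface, from which several are shed. They cluster receptors whose cytoplasmic tails bind TRAF adaptors, which lead to NF-kB and the JNK kinases, or carry a death domain, which recruits FADD or TRADD and can activate caspases. Decoy receptors bind ligand and lack a working death domain. In epithelial tumours the family is known for death receptor signalling and for signals exchanged with lymphocytes and other immune cells.

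PC3 is a cell line grown from a bone metastasis of a human prostate cancer, and ALKBH3 is an enzyme that removes methyl groups from damaged bases of single-stranded DNA and of RNA. Cells were infected with lentivirus that expressed an shRNA against ALKBH3 or, as control, an shRNA against GFP, and RNA was taken after puromycin selection for 48 h or 96 h. A single-colour Agilent array was run for each shRNA at each time, 4 in all, so the time points serve as the repeat of each shRNA, and nothing in the labels ties the arrays to separate infections. The labels do not tell which ALKBH3 shRNA was used, and a single shRNA leaves effects on other transcripts and loss of ALKBH3 impossible to tell apart.

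Signals are given in log2 units above or below the 75th percentile of the array, and differences are on the log2 scale. Signals of different probes cannot be ranked against each other, since probes differ in brightness. A probe was tested where both arrays of 1 shRNA, or of each, showed it well above background, and it was said to have risen or fallen where limma gave at least a 2-fold change and an unadjusted p under 0.05. In this fit, which has no block, no probe of the 23260 tested reached an adjusted p under 0.05, against 1778 at an unadjusted p under 0.05. With the time point as a replicate block, 496 probes (2.13%) reached an adjusted p under 0.05. The p-values cover only the spread between the arrays. The fit with the block is given beside a result where it changed the call.

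The ALKBH3 signal of the first of 2 probes was -0.62 and -0.61 in the control arrays of 48 h and 96 h and -2.66 and -2.67 in the knockdown arrays, a difference of -2.05 ± 0.12 (SE, limma adjusted p = 0.217, and 0.0247 with the replicate block). The second probe differed by -1.63 ± 0.13 (SE, limma adjusted p = 0.240, and 0.0374 with the block). The labels name no slide. Arrays of a time point may have shared a slide, which would then be impossible to tell apart from time. Between 67.0% and 70.9% of probes stood well above background. All 5 epithelial markers did so on all 4 arrays, while of the luminal prostate genes TMPRSS2 did on all 4 and KLK3 on 0.

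Of the 12 ligand genes tested, 1 passed the cutoffs: LTB rose about 4-fold at both time points. The largest difference at 48 h belonged to TNFSF10, which differed little at 96 h, and TNFSF15 was higher with ALKBH3 shRNA at both. Among the 20 receptor genes tested 0 passed, and TNFRSF21 had the largest difference downward. At the probe level 1 of 38 member probes (2.63%) passed upward and 0 downward, against 0.894% and 0.232% of all probes tested. An unadjusted p under 0.05 was reached by 5 of the 38 (13.2%), against 7.64% of all probes. FASLG, TNFSF13B and TNFRSF10C are among the 5. They were tested only because they stood well above background on both ALKBH3 shRNA arrays, where they were higher. With normexp background correction their differences were 0.04, 0.04 and 0.27, so the share is not read as a result about the members.

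LTB codes for lymphotoxin beta, a membrane protein that joins with lymphotoxin alpha into the heterotrimer that binds LTBR. The sequence upstream of its start is shown because LTB was the single member past the cutoffs. It lies at chr6:31582426-31582675 on the minus strand of GRCh38.p14, covers the 250 bases before the RefSeq start, and is printed 5′ to 3′ with motif matches in capitals.

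LTB: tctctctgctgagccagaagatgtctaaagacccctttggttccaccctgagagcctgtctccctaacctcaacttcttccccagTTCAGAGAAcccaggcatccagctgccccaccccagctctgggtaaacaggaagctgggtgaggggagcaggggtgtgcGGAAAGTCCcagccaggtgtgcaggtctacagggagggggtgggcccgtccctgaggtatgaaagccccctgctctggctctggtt

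The capitals mark TTCAGAGAA, a match to a gamma-activated site-like motif (TTCNNNGAA) that begins 165 bases before the start, and GGAAAGTCC, a match on the other strand to a kB-like motif (GGNNTTTCC) that begins 86 bases before it. The same windows of all 27305 promoters of the RefSeq table hold the kB-like motif on either strand in 5.48% and the gamma-activated site-like motif in 6.78%. Such a match is a description of the letters and not evidence of a bound site.

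The LTB signal was -4.12 and -4.42 with control shRNA at 48 h and 96 h and -2.20 and -2.35 with ALKBH3 shRNA, from spot intensities of 123, 109, 496 and 467. Both ALKBH3 shRNA arrays lay above both control arrays, and the gap within each shRNA was small. LTB was 3.80-fold higher with ALKBH3 shRNA at 48 h and 4.19-fold higher at 96 h, each from 1 array against 1. In the model over all 4 arrays it rose by 2.0 ± 0.16 (SE, limma unadjusted p = 8.96e-05, adjusted p = 0.240), and the adjusted p with the replicate block was 0.0248. In RNA from bulk culture a higher level in every cell and a high level in a few cells cannot be told apart.

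LTB is the neighbour of TNF, and TNF of LTA, in the order of genes on chromosome 6, and of these genes LTB alone passed the cutoffs. The LTA difference was 0.11 at 48 h and 0.36 at 96 h (0.24 ± 0.21, SE, limma adjusted p = 0.899), and its sign turned with normexp background correction (-0.05). The TNF probe was well above background on 0 of 4 arrays, with signals of -7.01 and -7.58 with control shRNA and -6.56 and -6.66 with ALKBH3 shRNA. LTBR, the receptor of the LTA and LTB heterotrimer, differed by -0.03 at 48 h and -0.22 at 96 h.

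**Figure D1:**
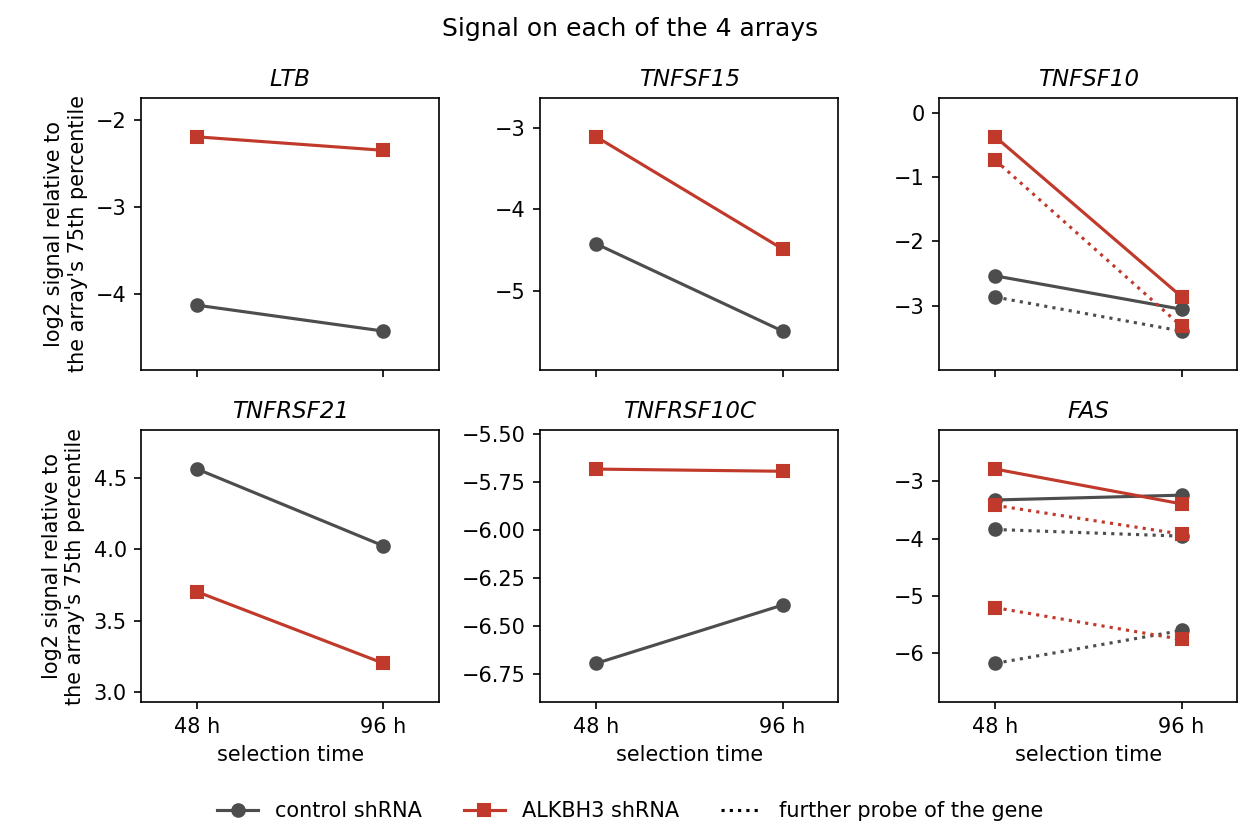
Log2 signal relative to the array's 75th percentile (y axis, each panel with its own range) against selection time (x axis) for 6 members, with 1 point per array, grey circles for control shRNA and red squares for ALKBH3 shRNA; dotted lines are further probes of the gene. LTB and TNFSF15 lay higher and TNFRSF21 lower with ALKBH3 shRNA at both times, TNFSF10 was 4.47-fold higher at 48 h and 1.14-fold at 96 h, and TNFRSF10C did not clear background on the control arrays.

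TNFSF10 codes for TRAIL, the ligand of the death receptors TNFRSF10A and TNFRSF10B. TNFSF10, TNFRSF9 and FAS are described in full because their values at 48 h stood out, a choice made after the values were seen. The upstream sequence of TNFSF10 is shown because its difference at 48 h was the largest of any member. It lies at chr3:172523431-172523680 on the minus strand of GRCh38.p14 and is printed in the same way.

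TNFSF10: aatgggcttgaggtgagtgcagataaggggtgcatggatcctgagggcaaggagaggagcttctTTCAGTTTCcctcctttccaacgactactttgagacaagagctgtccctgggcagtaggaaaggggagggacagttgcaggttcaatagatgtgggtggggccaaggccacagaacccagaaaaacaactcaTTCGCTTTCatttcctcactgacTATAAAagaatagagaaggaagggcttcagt

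The capitals mark TTCAGTTTC and TTCGCTTTC, matches on the other strand to an interferon response element-like motif (GAAANNGAA) that begin 186 and 54 bases before the start, and TATAAA, known as the TATA box, which begins 31 bases before it. The interferon response element-like motif occurs in 7.06% and TATAAA in 11.1% of all 27305 promoters. Of the 27 members with a promoter in that table, 4 hold the interferon response element-like motif, 4 the kB-like motif, 4 the gamma-activated site-like motif and 3 TATAAA.

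The TNFSF10 signal, a mean over 10 spots, was -2.53 in the control and -0.37 after knockdown at 48 h, and -3.05 and -2.86 at 96 h. The ALKBH3 shRNA array at 48 h stood above the other 3. The second TNFSF10 probe gave -2.86 and -0.74 at 48 h and -3.39 and -3.32 at 96 h. The difference was therefore 4.47-fold and 4.37-fold by the 2 probes at 48 h and 1.14-fold and 1.05-fold at 96 h. Over all 4 arrays it was 1.18 ± 0.84 (SE, limma adjusted p = 0.848), and it was 2.42 without the ALKBH3 shRNA array at 96 h and -0.07 without that at 48 h. No test of the difference between the time points was possible, since each combination has 1 array.

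TNFSF15 codes for TL1A, the ligand of the death domain receptor TNFRSF25. Its signal was -4.42 in the control and -3.11 after knockdown at 48 h, and -5.49 and -4.48 at 96 h. Within each time point the ALKBH3 shRNA array was the higher, by 2.48-fold and 2.01-fold, while the control at 48 h and the knockdown at 96 h were nearly level. The difference of 1.16 ± 0.58 (SE, limma adjusted p = 0.7505) did not pass without the block, whose adjusted p was 0.0386. It was 0.61 with normexp background correction, and with 1 array left out it ran from 0.47, without the knockdown array at 48 h, to 1.84, without that at 96 h. TNFRSF25 differed by -0.12 at 48 h and -0.19 at 96 h.

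Several of the other ligands act between lymphocytes and the cells they meet. TNFSF8, the CD30 ligand and the neighbour of TNFSF15 on chromosome 9, differed by 0.72 at 48 h and 0.46 at 96 h. TNFSF4, the OX40 ligand, differed by 0.28 and 0.49. The B cell survival factors TNFSF13B (BAFF) and TNFSF13 (APRIL) differed by 0.29 and 0.59 and by 0.30 and 0.14. TNFSF12, or TWEAK, differed by -0.08 and 0.03.

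FASLG, the ligand of the death receptor FAS, stood well above background on 0 of 2 control arrays. Its signals were -6.90 and -6.77 with control shRNA and -6.41 and -6.26 with ALKBH3 shRNA. The fitted difference was 0.50 (limma adjusted p = 0.495). A lower bound, which was not tested, gives at least 1.26-fold. For this the control was set, where its own signal was lower, to the lowest signal of any probe well above background on that array. That bound holds only for the main processing, since the difference of 0.50 was 0.29 with quantile normalization. It was 0.16 with the values normalized by the authors and 0.04 with normexp. The costimulatory ligands TNFSF9 and CD70, neighbours on chromosome 19, were the ligands that were lower with ALKBH3 shRNA at both times. TNFSF9 (4-1BB ligand) differed by -0.75 and -0.44 (limma adjusted p = 0.850), and CD70 by -0.16 and -0.37. TNFSF11 (RANK ligand), TNFSF14 (LIGHT) and TNFSF18 (GITR ligand) were not tested, since they did not stand well above background on both arrays of either shRNA.

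Thus 9 of 12 ligand genes were higher with ALKBH3 shRNA at both time points, 2 were lower at both and 1 went both ways. No share of all probes was taken for these directions. FASLG, TNFSF13B and TNFSF8 were tested only because they stood well above background on both ALKBH3 shRNA arrays, a filter that favours higher values there. The median difference over the 12 was 0.30 at 48 h and 0.41 at 96 h, against -0.01 and 0.02 over all probes tested. The medians depended on the treatment of dim probes, falling to 0.06 and 0.12 with normexp, under which the differences of FASLG, TNFSF13B and TNFSF8 were 0.04, 0.04 and 0.14. Of 8 leukocyte markers, 7 had a probe. By their best probe 6 stood well above background on all 4 arrays, and MS4A1 on 1. PTPRC and CD3E were among the 6 with low signals, and further PTPRC probes stood well above background on 0 arrays. In the controls the brightest PTPRC probe lay at -4.71 and -4.53 and CD3E at -5.64 and -5.44. The lowest signal well above background on those arrays was -6.84 and -6.50. The summed level of the leukocyte markers, in units of the array's 75th percentile, was 0.85 and 0.67 with control shRNA and 0.96 and 0.67 with ALKBH3 shRNA. All 3 fibroblast markers, well above background on all arrays, summed to 0.63 and 0.41 with control shRNA and to 0.89 and 0.73 with ALKBH3 shRNA. CD68 made up most of the leukocyte sum and COL1A1 of the fibroblast sum, whereas the fibroblast gene COL3A1 differed by -0.08 and -0.78. Both endothelial markers stood well above background on all arrays. They summed to 0.19 and 0.18 with control shRNA and to 0.15 and 0.14 after knockdown. The 5 epithelial markers summed to 183 and 166 with control shRNA and to 167 and 162 after knockdown. Of these EPCAM and CDH1 differed by 0.96 and 0.99 and by 0.89 and 0.58. By their brightest probes KRT8, KRT18 and KRT19 differed by 0.10 and -0.04, by -0.03 and -0.11, and by -0.27 and -0.08. The part of these marker differences in the ligand differences was not tested.

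**Figure D2:**
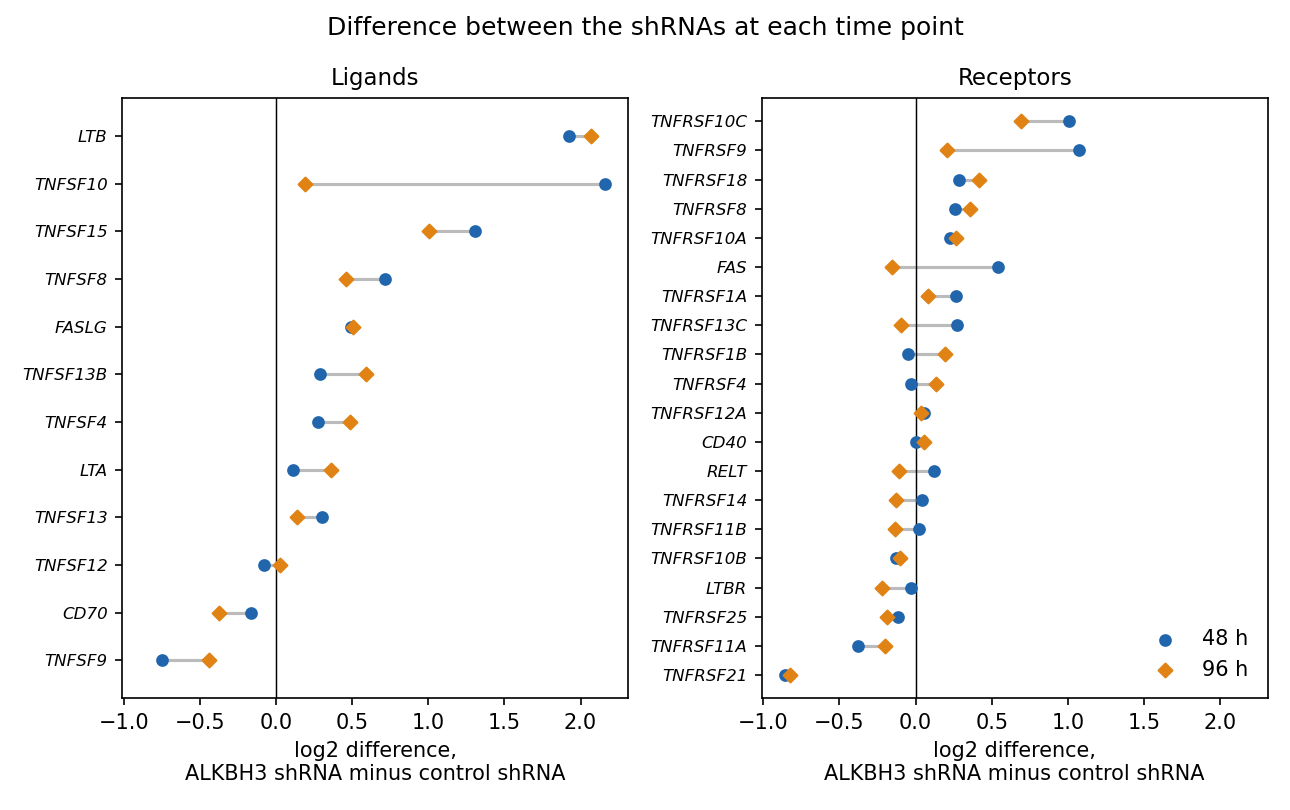
Log2 difference, ALKBH3 shRNA minus control shRNA (x axis), of each tested ligand gene (left) and receptor gene (right) by its brightest probe, with blue circles for 48 h and orange diamonds for 96 h, each 1 array against 1. LTB lay near 2 at both times and TNFSF10 at 48 h alone, while 13 of 20 receptors lay within 0.3 of 0 at both times. The signals of FASLG, TNFSF13B, TNFSF8 and TNFRSF10C lay near background.

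TNFRSF21 codes for death receptor 6, which carries a death domain. Its upstream sequence is shown because no other receptor had a larger difference downward. It lies at chr6:47309906-47310155 on the minus strand of GRCh38.p14.

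TNFRSF21: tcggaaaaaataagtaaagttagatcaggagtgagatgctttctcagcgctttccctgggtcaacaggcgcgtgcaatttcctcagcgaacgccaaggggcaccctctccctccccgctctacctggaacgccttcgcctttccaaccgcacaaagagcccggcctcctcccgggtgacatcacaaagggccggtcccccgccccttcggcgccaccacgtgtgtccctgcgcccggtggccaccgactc

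The 4 motifs searched are not in this window, which says nothing of the factors. Its G and C content is 62%, against 60% for the LTB window, 49.6% for that of TNFSF10 and a median of 58% over all promoters. The TNFRSF21 signal was 4.56 and 4.02 with control shRNA and 3.70 and 3.20 with ALKBH3 shRNA. Both knockdown arrays lay below both control arrays. The level with ALKBH3 shRNA was 0.552 of control at 48 h and 0.566 of control at 96 h. The difference of -0.84 ± 0.27 (SE, limma adjusted p = 0.582, and 0.0413 with the replicate block) was short of the 2-fold cutoff.

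The receptors of TRAIL showed small differences or none that could be measured well. TNFRSF10A and TNFRSF10B, which signal for death, differed by 0.23 and 0.26 and by -0.13 and -0.10. TNFRSF10C, a decoy without a cytoplasmic death domain, had signals of -6.69 and -6.39 with control shRNA and -5.68 and -5.69 with ALKBH3 shRNA, and was well above background on no control array. By these signals it was 1.81-fold higher after knockdown over all 4 arrays (limma adjusted p = 0.384, and 0.0491 with the block). At 48 h it was 2.01-fold and at 96 h 1.62-fold higher. The value over all arrays holds only for the background subtraction as deposited, since the difference of 0.85 was 0.27 with normexp. Without the control array at 48 h it was 0.70. The decoy TNFRSF10D was not tested, and TNFRSF11B (osteoprotegerin), a soluble receptor of TRAIL and of TNFSF11, differed by 0.02 and -0.14.

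FAS, a death receptor, had 3 probes. By the probe with 10 spots the signal was -3.32 in the control and -2.79 after knockdown at 48 h, and -3.24 and -3.39 at 96 h. The knockdown array was the higher at 48 h alone. The differences by the 3 probes were 0.54, 0.97 and 0.42 at 48 h and -0.15, -0.16 and 0.03 at 96 h, and over all 4 arrays 0.19, 0.41 and 0.23 with limma adjusted p of 0.938, 0.845 and 0.904. The main TNF receptor TNFRSF1A differed by 0.27 and 0.08, and TNFRSF1B, the other TNF receptor, by -0.05 and 0.19.

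TNFRSF9, the costimulatory receptor 4-1BB, had signals of -5.73 in the control and -4.66 after knockdown at 48 h, and -4.87 and -4.66 at 96 h. The knockdown arrays were level and the control array at 48 h was the low one. The difference was thus 2.10-fold at 48 h and 1.16-fold at 96 h (0.64 ± 0.31, SE, limma adjusted p = 0.731), and 0.11 with normexp. The related receptors TNFRSF18 (GITR), TNFRSF8 (CD30) and TNFRSF4 (OX40) differed by 0.29 and 0.41, by 0.26 and 0.36, and by -0.03 and 0.13.

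The remaining receptors had small differences. TNFRSF12A, the receptor of TWEAK, differed by 0.05 and 0.04, CD40 by 0.00 and 0.05, and the orphan receptor RELT by 0.12 and -0.11. TNFRSF14 (HVEM), the receptor of LIGHT, differed by 0.04 and -0.13, and TNFRSF13C, the BAFF receptor, by 0.27 and -0.10. TNFRSF11A, or RANK, differed by -0.38 and -0.20. CD27, EDAR, NGFR, TNFRSF13B, TNFRSF17 and TNFRSF19 were not tested. NGFR, a receptor of neurotrophins, stood well above background on 0 of 4 arrays, with signals of -8.45 and -8.00 with control shRNA and -7.01 and -6.90 after knockdown, and no fold is given for it.

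Of the 20 receptor genes tested, 8 were higher at both times, 5 lower at both and 7 went both ways. The median difference was 0.05 at 48 h and -0.03 at 96 h. Differences within 0.3 of 0 at both times were found for 13 of the 20 receptors and 1 of the 12 ligands. No share of all probes was taken for this count or for the directions above. Low signals occurred in both classes. Mean control signals of the ligands FASLG, TNFSF13B and TNFSF8 were -6.84, -6.04 and -6.29, and that of TNFSF12 was 1.02. Those of the receptors TNFRSF4, TNFRSF1B and TNFRSF13C, within 0.3 of 0 at both times, were -5.02, -5.16 and -5.30. Those of TNFRSF12A, TNFRSF10B and TNFRSF14 were 4.96, 2.43 and 2.27. The part of dim signal in this contrast was not tested. With the replicate block 4 of 38 member probes (10.53%) had an adjusted p under 0.05, against 2.13% of all probes in either direction. They were LTB, TNFSF15 and TNFRSF10C upward and TNFRSF21 downward, and TNFRSF10C was tested only through the ALKBH3 shRNA arrays, where it was higher. Among the tested members, those genes were also the ones that differed at least 1.5-fold in the same direction at both times. The block fit is built from the same differences at each time, so this overlap is no separate support.

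At a single time, with 1 array against 1 and no test, 6 of 38 member probes (15.8%) were at least 2-fold higher with ALKBH3 shRNA at 48 h and 0 were at least 2-fold lower, against 1.63% and 0.288% of all probes. They were those of LTB, TNFSF15, TNFRSF9 and TNFRSF10C and both of TNFSF10. The TNFRSF10C probe was tested only through the ALKBH3 shRNA arrays, where it was higher. At 96 h LTB and TNFSF15 were left, 2 of 38 (5.26%), and 0 were lower, against 1.35% and 0.447% of all probes.

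Between the time points 0 of 38 member probes passed the cutoffs in either direction, against 0.142% of all probes upward and 0.542% downward. An unadjusted p under 0.05 was reached by 6 of the 38 (15.8%), against 17.7% of all probes. With the shRNA as a replicate block 5 of 38 (13.2%) had an adjusted p under 0.05, against 8.63% of all probes. TNFSF15 was lower at 96 h by 1.07 with control shRNA and by 1.37 with ALKBH3 shRNA (limma adjusted p = 0.0334 with the block). TNFSF9 was lower by 1.03 and 0.72 (limma adjusted p = 0.0341 with the block), and CD70 by 0.52 and 0.73 (0.0395). TNFRSF21 was lower at 96 h by 0.54 and 0.50 (0.0411), and TNFSF8 was higher by 0.79 and 0.53 (0.0395).

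TNFSF10 was lower at 96 h by 0.52 with control shRNA and by 2.48 with ALKBH3 shRNA. With the shRNA as a replicate block both TNFSF10 probes and that of TNFSF15 passed the cutoffs for time, the TNFSF10 probes with differences of -1.50 and -1.55 (limma adjusted p = 0.115 and 0.116). TNFRSF14 had the lowest unadjusted p for time among the members, with a difference of -0.36 with control and -0.53 with ALKBH3 shRNA (limma adjusted p = 0.178). Ligands were lower at 96 h in 9 of 12 genes with control and in 7 of 12 with ALKBH3 shRNA, with medians of -0.22 and -0.19. Receptors were lower in 13 of 20 genes with either shRNA, with medians of -0.05 and -0.08, against 51.8% and 46.7% of all probes.

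**Figure D3:**
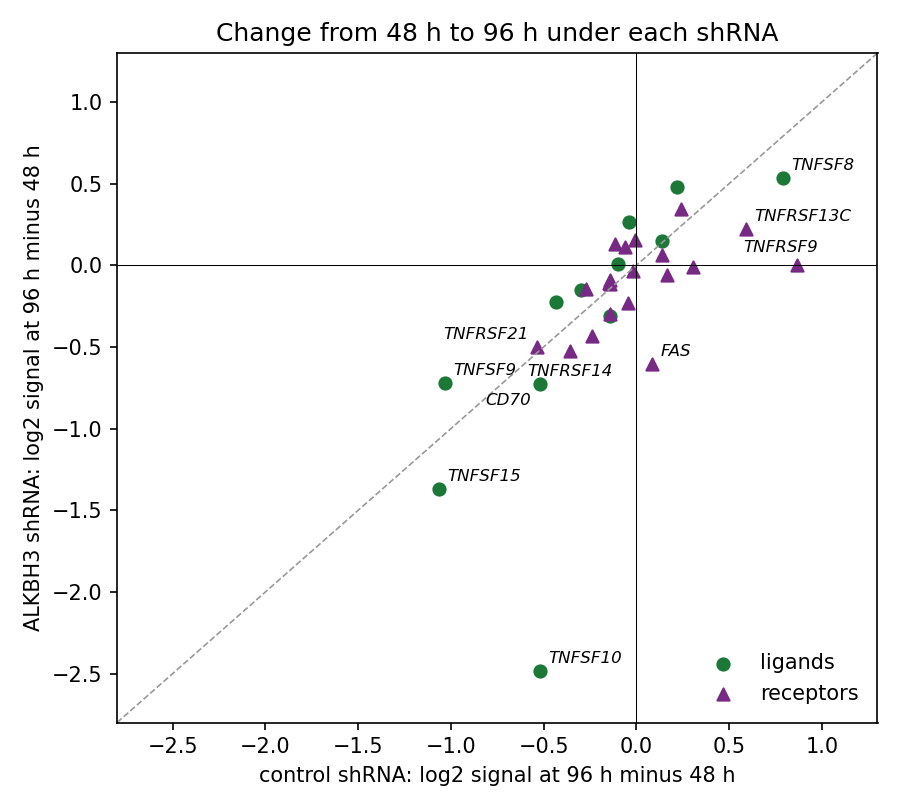
Log2 signal at 96 h minus 48 h with control shRNA (x axis) and with ALKBH3 shRNA (y axis) for each tested gene by its brightest probe, with green circles for ligands and purple triangles for receptors, each value 1 array against 1; the dashed line marks equal change. Most members lay near the line, and TNFSF10 lay far below it, at -0.52 and -2.48.

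The pathway downstream of the receptors was read from 3 lists of 58 genes. Of these 54 were tested and 0 passed the cutoffs in either direction. An unadjusted p under 0.05 was reached by 7 of the 54 (13.0%), against 7.64% of all probes, and an adjusted p under 0.05 with the replicate block by BIRC3 alone (1.85%), against 2.13% of all probes. The median difference over 19 adaptors and ubiquitin ligases was 0.07, over 14 genes of the death arm 0.04 and over 21 kinases and NF-kB genes 0.02, against 0.00 over all probes. BIRC3 (cIAP2), a ubiquitin ligase that binds TRAF2, had the largest difference, 0.71 at 48 h and 0.97 at 96 h (0.84 ± 0.13, SE, limma adjusted p = 0.358, and 0.0474 with the block).

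NFKBIA, the inhibitor that holds NF-kB in the cytoplasm, differed by 0.57 and 0.72, and CASP10, a caspase recruited by death receptors, by 0.55 and 0.79. The largest differences downward were those of APAF1, the core of the apoptosome (-0.44 and -0.52), and BAX, which permeabilizes mitochondria (-0.57 and -0.20). Outside these lists EDA, the ligand of EDAR, differed by -0.45 and -0.25, and CD40LG and EDA2R were not tested.

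**Figure D4:**
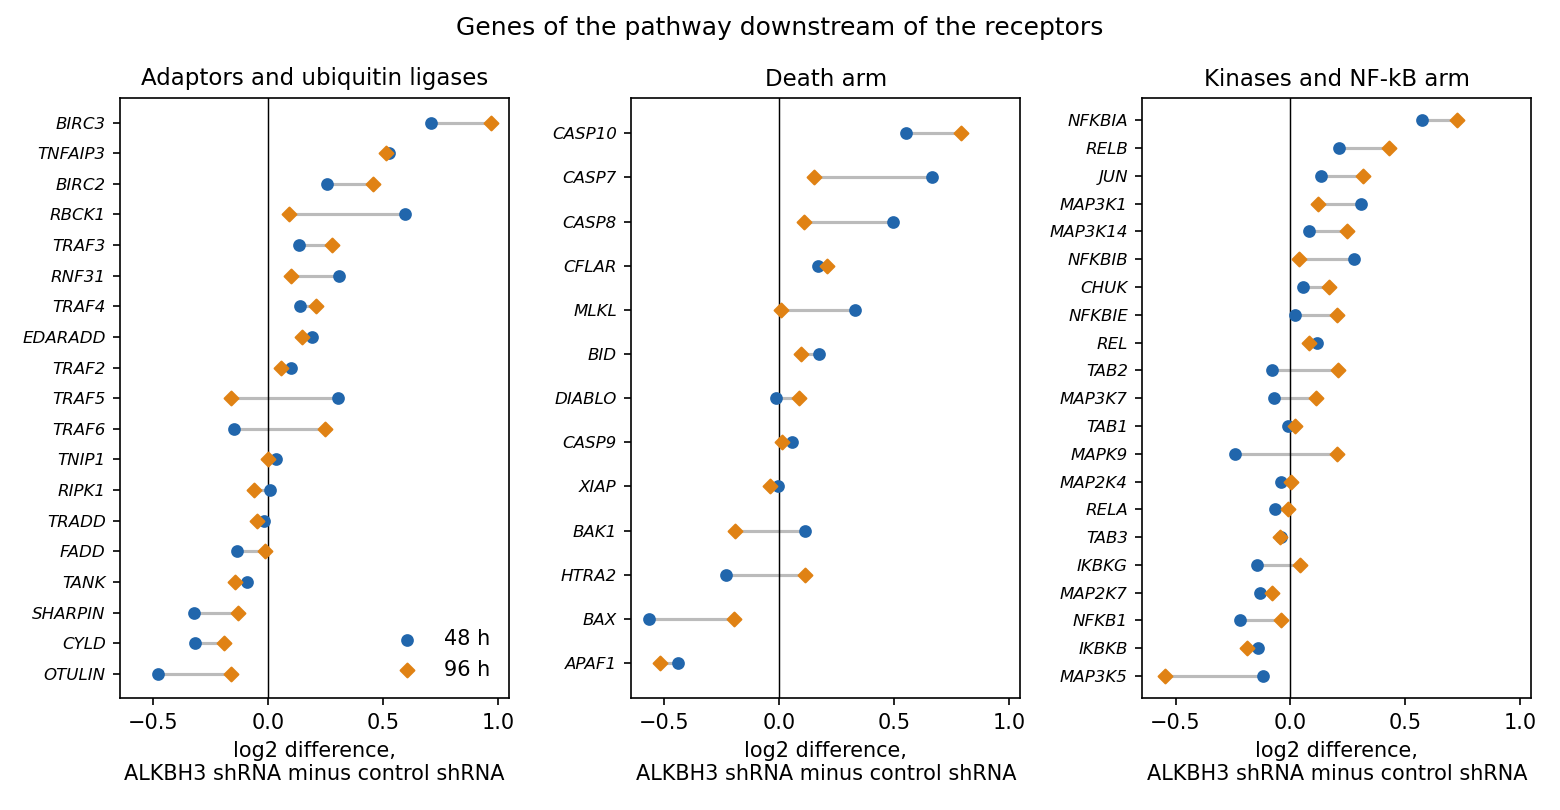
Log2 difference, ALKBH3 shRNA minus control shRNA (x axis), of tested genes of the 3 downstream lists, each by its brightest probe. Genes not reported here are left out. Blue circles mark 48 h and orange diamonds 96 h, each 1 array against 1. All points lay within 1 of 0, with BIRC3 highest at 0.71 and 0.97.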

How the data were processed

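Per the labels and the study's methods, RNA of 4 PC3 cultures was hybridised to 1 single-colour Agilent array each. The deposited spot intensities came from Agilent Feature Extraction (version 10.7.3.1 in the file headers), background subtracted on each array and not normalized between arrays. The authors also deposited log2 values normalized between the arrays, used here as an alternative.

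Each array held 43118 spots that are not controls. Between 180 and 379 of them, marked as non-uniform or outliers, were removed, and 0 were saturated. The 75th percentile lay between 2134 and 2385 intensity units. Log2 intensity was centred on it and spots of a probe were averaged, with a median SD between spots of 0.085 to 0.097. The number of arrays limits the precision. A probe was well above background where at least 0.5 of its spots were. The 23260 probes that passed on both arrays of either shRNA were fitted with limma 3.58.1 (lmFit, eBayes, no covariate) in R 4.3.3, with data.table (version 1.17.8), and p-values were adjusted by Benjamini-Hochberg over all of them. The cutoffs, 2-fold and p under 0.05, follow the study. A gene is given by its tested probe of highest mean signal.

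The members, lists and motifs were chosen with earlier results of these data known. Every member is named, with all signals for those past the cutoffs or at least 1.5-fold different in the same direction at both times, and the 3 largest differences each way of the pathway lists; some genes of these lists are not reported here. The pathway and marker lists hold textbook genes. Alternatives were other normalizations and background corrections (normexp, offset 50), the authors' values, other filters, a 1.5-fold cutoff, the methods' t-test, probe means, replicate blocks and leaving out each array. The fit without a block was also run on simulated data with independent noise on each array. That setting lacks the correlation between arrays of the same time point, so it does not cover their pairing. Upstream sequences are from RefSeq, GRCh38.p14; the gene table gave names and gene order only. For TNFSF15 no upstream sequence is shown. The ChIP-seq data of the study are not analysed here.

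Residuals of arrays of the same time point correlated at 0.660. The time point is the number that the arrays share in the labels, and whether it also marks a shared slide is not given there.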

Additional observations from a re-analysis of the deposited data

Results flagged for a closer look

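FAS was higher with ALKBH3 shRNA at 48 h and lower at 96 h by 2 of its 3 probes, with differences of 0.54 and -0.15 by one and 0.97 and -0.16 by the other. The third probe gave 0.42 and 0.03. The difference between the time points was not tested, since each combination of shRNA and time has 1 array.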

How the results depend on the processing

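LTB rose under every alternative run, by between 1.52 (normexp) and 2.14. The count of member probes that rose, 1, was 2 with a 1.5-fold cutoff, which adds TNFRSF10C, 2 without a filter on dim probes, which adds NGFR, and 2 with the time point as a replicate block, which adds TNFSF15. It lay between 1 and 4 with 1 array left out. The count that fell, 0, was 1 with a 1.5-fold cutoff, TNFRSF21, and between 0 and 2 with 1 array left out. Without the control array at 48 h the probes past the cutoffs were those of LTB and TNFSF15, without that at 96 h LTB, TNFRSF10C and TNFRSF9 upward and TNFRSF21 and TNFSF9 downward, without the ALKBH3 shRNA array at 48 h LTB upward and TNFRSF21 downward, and without that at 96 h LTB, TNFSF15 and both of TNFSF10. Between the time points the count that rose, 0, was 2 without a filter and between 0 and 1 with 1 array left out, and the count that fell, 0, was 2 with a 1.5-fold cutoff, 3 with the shRNA as a replicate block, 1 with the authors' values and between 0 and 3 with 1 array left out. The pathway count that rose, 0, was 3 with a 1.5-fold cutoff.

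The ligand median at 48 h, 0.30, was 0.061 with normexp, 0.095 with normexp and quantile normalization, and 0.16 with the authors' values. At 96 h the median of 0.41 was 0.12, 0.11 and 0.16 with these, 0.24 with quantile normalization and 0.19 when a probe had to pass the background filter on all 4 arrays. Small differences changed sign. With normexp they were -0.0041 for CD40, -0.047 for LTA, -0.069 for TNFRSF13C, -0.12 for TNFRSF1B and 0.034 for TNFSF12, and with normexp and quantile normalization -0.028 for LTA, -0.069 for TNFRSF13C, -0.11 for TNFRSF1B and 0.046 for TNFSF12. With the authors' values they were -0.0027 for CD40, -0.054 for LTA, -0.11 for TNFRSF13C, -0.19 for TNFRSF1B and 0.043 for TNFSF12. Quantile normalization gave -0.028 for TNFRSF13C, -0.015 for TNFRSF1B, -0.033 for TNFRSF4 and 0.0029 for TNFSF12, centring on the median -0.017 for RELT, and the mean over probes 0.0496 for TNFSF12. With 1 array left out the differences ran from -0.044 to 0.10 for CD40, -0.63 to 0.10 for CD70, -0.11 to 0.50 for FAS, -0.0019 to 0.47 for LTA, -0.34 to 0.092 for LTBR, -0.077 to 0.087 for RELT, -0.21 to 0.091 for TNFRSF11B, -0.21 to 0.38 for TNFRSF13C, -0.31 to 0.22 for TNFRSF14, -0.024 to 0.13 for TNFRSF4, -0.065 to 2.42 for TNFSF10 and -0.077 to 0.024 for TNFSF12. The cause was not tested. Over all alternatives 492 gene values kept their direction and side of the cutoffs, 11 newly passed, 37 changed sign and 0 were lost.

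With 1 array for each shRNA and time point, differences at 1 time have no replicate check. Probes near background, such as those of FASLG, TNFRSF10C and TNFSF13B, limit the size of the differences that can be read from them. Where an array was left out, the lone array of its group was assumed to vary like the pair of the other group, and the probes tested were kept.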
